A study of Homo sapiens with 36 samples.

Results

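The baseline methylation of 2 human cell lines was compared at single adenosines: HEK293T, a line derived from embryonic kidney, and BE(2)-C, a neuroblastoma line, without all-trans retinoic acid (ATRA). A site is an adenosine listed as methylated, and sites were matched between the lines on chromosome, position and strand. Of the 57011 sites listed in HEK293T and the 22855 listed in BE(2)-C, 7106 were listed in both, which is 12.5% of the HEK293T list and 31.1% of the BE(2)-C list. A further 49905 sites were listed in HEK293T alone and 15749 in BE(2)-C alone, and the whole series lists 82971 sites. The motif, the region and the gene given to a shared site were the same in both tables for all 7106.

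The study used m6ACE, in which an antibody against N6-methylated adenosine is crosslinked to RNA and exonuclease digestion up to the crosslink marks the base. Its 36 samples are 18 m6ACE libraries and 18 input libraries, in groups of 3, from HEK293T and from BE(2)-C with and without ATRA, each transfected with a scrambled siRNA (siScram) or an siRNA against PCIF1 (siPcif1). Baseline here means the 3 siScram m6ACE libraries of HEK293T and the 3 of BE(2)-C without ATRA. The siPcif1 libraries of the same lines serve as a further set of 6.

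All of the cells compared had therefore been transfected with an siRNA, and untransfected cells are not among the groups. The labels give a transfection of 24 h in a text written for BE(2)-C, describe HEK293T as neuroblastoma too, and do not give the treatment of HEK293T itself. The BE(2)-C table is named for DMSO, a solvent, whereas its labels record only the absence of ATRA. Each line is a single cultured line. Nothing in the labels tells if the 3 replicates of a group were grown separately, so a p-value here covers the variation among the libraries, some of which may be technical.

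N6-methyladenosine (m6A) inside mRNA is written by a complex around the methyltransferase METTL3, mostly in the DRACH context (D is A, G or T; R is A or G; H is A, C or T), and is found chiefly in coding sequence near stop codons and in 3'UTRs. A different mark, m6Am, forms where the first transcribed base is adenosine: PCIF1 adds the N6-methyl group next to the cap. The antibody binds both, so a site at a transcript start can be m6Am, while a DRACH site in coding sequence or a 3'UTR is the typical place of m6A. In this account, internal sites are those in coding sequence or 3'UTRs, and 5' sites are those in 5'UTRs whose motif is not DRACH.

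Sequences around 7 of the 5' sites described below show where the lines differed and where they did not. Each is RefSeq GRCh38.p14 sequence, 5' to 3' on the transcribed strand, with the 5-base motif in capitals and the methylated adenosine in its middle. CTNNB1, MYDGF, HSP90B1, POLR2E and SPTAN1 were higher in HEK293T, GLIPR2 was higher in BE(2)-C, and METTL3 is shown as a site where no difference was detected. None of the 7 motifs is DRACH, and the adenosine of CTNNB1, MYDGF, HSP90B1 and METTL3 is the first base of the RefSeq gene.
CTNNB1, chr3:41199491-41199519, plus strand: tgcggcgccattTTAAGcctctcggtctg
MYDGF, chr19:4670328-4670356, minus strand: gccctgaggaccCTAGTccaacatggcgg
HSP90B1, chr12:103930396-103930424, plus strand: cctgcttgcggtGTAGTgggcggaccgcg
POLR2E, chr19:1095338-1095366, minus strand: gggttctcgcgcGGAGAaggggtgcgagc
SPTAN1, chr9:128552576-128552604, plus strand: cgcgcgtcgccgCCACTacccgctgcgga
GLIPR2, chr9:36136721-36136749, plus strand: ggccgggcgagcGCAGTgcagcgcagccg
METTL3, chr14:21511326-21511354, minus strand: cagctccaggggTCATTttccggttagcc

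Which sites the lines shared depended on their class. Of the 2011 5' sites listed in BE(2)-C, 75.4% were also listed in HEK293T, and of the 4378 internal DRACH sites 70.5% were. Of the 15114 internal sites with another motif, 13.4% were. Seen from HEK293T the share was nearly even, at 13.4% of 11302 5' sites, 12.9% of 23952 internal DRACH sites and 12.8% of 15795 other internal sites. Among the 5' sites of BE(2)-C, the share also listed in HEK293T was 82.5% where the adenosine followed a C, 77.7% after a T, 61.2% after a G and 20.2% after an A. Within the 3505 genes listed in both lines the BE(2)-C shares were 80.4% for 5' sites, 77.6% for internal DRACH sites and 14.9% for other internal sites. The order of the classes was therefore the same among genes that had a site in both lines.

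**Figure D1:**
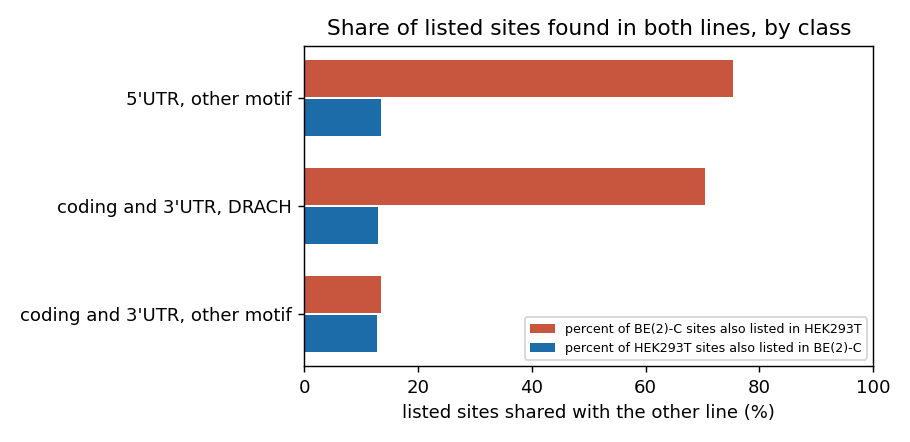
Horizontal bars give the percent of the listed sites of BE(2)-C (red) and of HEK293T (blue) that were also listed in the other line, for 3 classes of site, on an axis from 0 to 100%. In BE(2)-C the 5' sites (75.4%) and internal DRACH sites (70.5%) were mostly shared and other internal sites (13.4%) were not, whereas the HEK293T bars lie between 12.8% and 13.4%.

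The sites listed in a single line differed in make-up. A DRACH motif was present at 46.6% of shared sites, 48.4% of sites listed in HEK293T alone and 9.1% of those listed in BE(2)-C alone. Coding sequence held 70.6% of the BE(2)-C-only sites, against 46.8% of shared and 45.9% of HEK293T-only sites, and 5'UTRs held 3.44% of them, against 22.6% and 21.6%. The most frequent motif was GGACT among shared sites (12.3%) and among HEK293T-only sites (10.3%), but GAAGA among BE(2)-C-only sites (1.96%), so that no single motif led the last set. Among internal sites without DRACH, an adenosine in an ATG triplet made up 18.5% of the BE(2)-C-only sites, 12.2% of the shared and 7.84% of the HEK293T-only sites. GGACG, which differs from DRACH in its last base alone, made up 0.573%, 6.96% and 7.05% of the same sets.

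The BE(2)-C-only sites also lay close together. Another site listed in the same line lay within 10 nt of 51.7% of them and of 22.2% of the HEK293T-only sites. Internal non-DRACH sites of BE(2)-C alone numbered 13089 in 2589 genes, or 5.06 per gene, against 13770 in 4310 genes, or 3.2 per gene, in HEK293T alone. The 494 5' sites of BE(2)-C alone lay at a median of 292 nt from the outermost RefSeq gene start, and 17.1% of those with a distance lay within 10 nt of it. Shared 5' sites had a median distance of 8 nt with 46.4% within 10 nt, and HEK293T-only 5' sites 14 nt with 31.4%. In the table of BE(2)-C treated with ATRA, 56.3% of shared sites, 24.1% of BE(2)-C-only sites and 6.05% of HEK293T-only sites were listed again. Listing also depends on read depth and on how much of a transcript a line makes. Neither has a column in the tables, and their part in these shares was not tested.

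The genes listed in a single line included those that mark it. HEK293T had sites in 8802 genes and BE(2)-C in 3820, with 315 genes in BE(2)-C alone and 5297 in HEK293T alone. Sites in BE(2)-C alone, with 0 in HEK293T, were most numerous in CHGA with 245, MYCN with 156, CHGB with 145, SCG2 with 116 and HAND2 with 86. CHGA, CHGB and SCG2 encode granins, the matrix proteins of secretory granules in chromaffin and nerve cells. MYCN is the transcription factor amplified in many neuroblastomas and HAND2 a transcription factor of sympathetic neurons. The next 5 were MAB21L1 with 60, EMILIN1 with 55, HMP19 with 38 (NSG2 in RefSeq, a neuronal endosomal protein), the growth factor gene IGF2 with 37 and CD248 with 29.

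In HEK293T alone, sites were most numerous in XIST with 111, the noncoding RNA of X inactivation, PLEC with 56, which encodes the cytolinker plectin, and HSPA1B with 54, an HSP70 gene. These were followed by the axon guidance ligand SLIT2 with 53, IRS4 with 52, an insulin receptor substrate known to be abundant in HEK293 cells, SRCAP with 50, EMILIN3 with 48, GEMIN4 with 44, the transcription factor FOXC1 with 42 and LRRC14 with 36. HSPA1B is nearly identical to HSPA1A, and the rule by which reads of such copies were assigned is not stated. DRACH sites made up 35.4% (EMILIN3) to 70.5% (GEMIN4) of the sites in these 10 genes and 7.76% (CHGA) to 27.3% (EMILIN1) in the 10 of BE(2)-C. The difference in motif between the lists was thus seen gene by gene in genes with many sites.

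**Figure D2:**
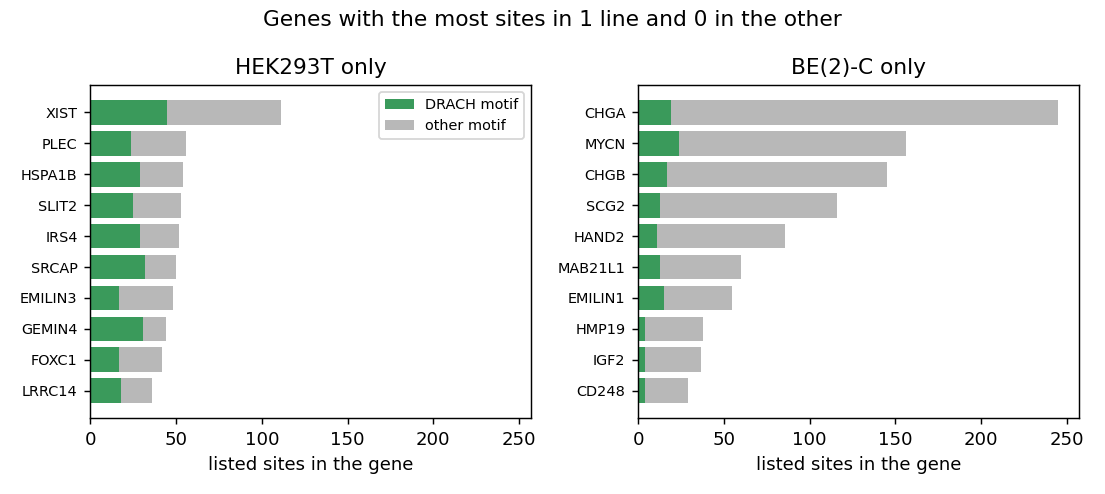
Bars give the number of listed sites in the 10 genes with the most sites in HEK293T and 0 in BE(2)-C (left) and the reverse (right), split into sites with a DRACH motif (green) and with another motif (grey). CHGA has 245 sites of which 19 are DRACH, whereas GEMIN4 has 44 of which 31 are DRACH.

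Marker genes were checked against the names of the lines. Of 13 markers of adrenergic neuroblastoma, 12 had sites in BE(2)-C, 747 in all, and 3 had sites in HEK293T, 20 in all. The exception in BE(2)-C was TH, tyrosine hydroxylase, with 0 sites. The 3 in HEK293T were GATA2 with 15 sites, GATA3 with 3 and ISL1 with 2. Of 8 markers of embryonic kidney, SALL1, POU3F3 and GPC3 had 39 sites together in HEK293T and the others, PAX2 and PAX8 among them, had none, while BE(2)-C had 0 sites in all 8. The 4 Schwann cell markers were at 0 in both lines, of 4 fibroblast markers THY1 alone was listed (25 sites, BE(2)-C), and of 4 epithelial markers KRT18 alone (3 sites, HEK293T). In the wider lists, 13 mesenchymal and fibroblast genes had 74 sites in HEK293T, VIM with 21 and COL6A1 with 15 among them, and 5 had 61 sites in BE(2)-C. Of the wider epithelial list, 6 genes had 28 sites in HEK293T, 19 of them in DSP, and CD24 had 3 in BE(2)-C.

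The HOX genes, which set position along the body axis, had 164 sites in 31 genes in HEK293T and 0 in BE(2)-C. HOXD13 had the most with 16, followed by HOXB9 with 15 and HOXD11 with 13. Of 14 listed genes of kidney development and renal tubules, 13 had sites in HEK293T, such as CITED1 and FOXD1 with 14 each, and EYA4 alone had sites in BE(2)-C, with 4. In the 2p24 neighbourhood of MYCN, the RNA helicase gene DDX1, which is often amplified together with MYCN, had 3 sites in each line, and TRIB2, a pseudokinase gene, had 1 in HEK293T and 40 in BE(2)-C. A site count follows the transcript's abundance as well as its methylation, and it is not an expression level.

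The level of a shared site was read from its relative methylation level (RML), a ratio that the authors deposited for every m6ACE library and whose formula the sources used here do not give. The median RML over the 7106 shared sites was 2.6 to 2.62 in the HEK293T libraries and 2.56, 3.78 and 4.35 in the BE(2)-C libraries. Each library was therefore centred: a relative level is log2(RML) minus the median of that library over shared sites, and every difference below is HEK293T minus BE(2)-C on that scale. Without centring the median difference would be -0.40, and cell line cannot be told apart from table, since each table was made separately. Depth per site is unknown, and values carry no counting interval.

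HEK293T levels were spread more widely than those of BE(2)-C. The SD of log2(RML) over shared sites was 1.88 ± 0.022 (SD, n = 3) in HEK293T and 1.39 ± 0.028 (SD, n = 3) in BE(2)-C, and in the siPcif1 libraries 1.68 ± 0.11 and 1.25 ± 0.031. Sorted by mean level over the 6 libraries into 5 equal bins, sites had median differences of -0.79, -0.29, -0.00, 0.25 and 0.71 from the lowest bin to the highest. Low sites were thus relatively lower, and high sites relatively higher, in HEK293T. After quantile normalization, which gives every library the same distribution, the medians ran from -0.07 to 0.11. As a description across sites, which are not independent replicates and share their libraries, Pearson's r was 0.833 to 0.840 between libraries of the 2 lines, 0.939 to 0.947 within HEK293T and 0.915 to 0.926 within BE(2)-C.

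**Figure D3:**
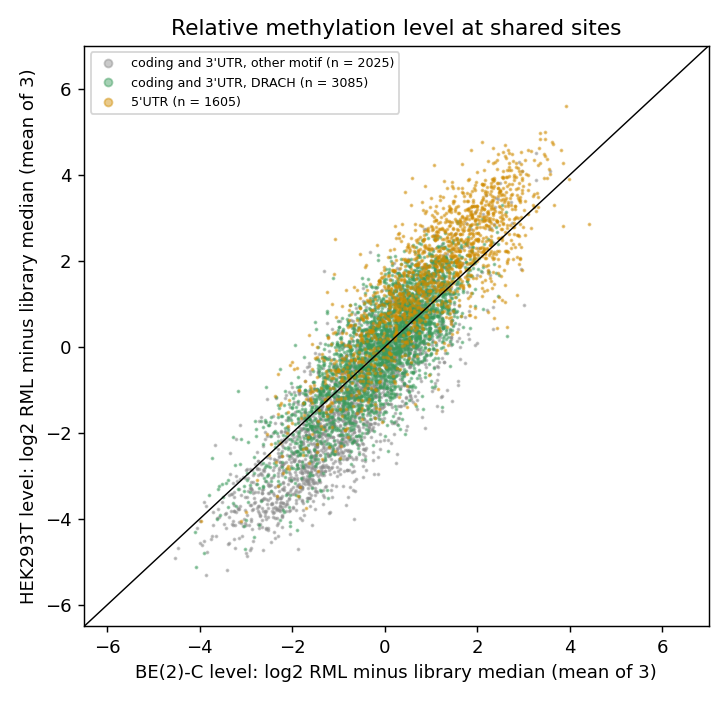
Each point is a shared site, placed by its mean relative level (log2 RML minus the library median, 3 siScram libraries each) in BE(2)-C on the x axis and in HEK293T on the y axis, and coloured by class; the line marks equal levels. The cloud is steeper than the line: 5'UTR sites (orange, 1605) lie mostly above it and internal sites without DRACH (grey, 2025) mostly below it.

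With limma over all shared sites, 1159 sites (16.3% of those tested) were higher in HEK293T and 1583 (22.3%) were higher in BE(2)-C at a Benjamini-Hochberg adjusted p of 0.05. Quantile normalization called 1049 (14.8%) and 1034 (14.6%), and the split moved from 42.3% to 50.4% of calls higher in HEK293T. Of the calls, 700 higher in HEK293T and 927 higher in BE(2)-C were made under both settings, and 19 sites were called in opposite directions. Centring on the whole table instead moved the split to 836 and 1933, and no centring moved it to 279 and 2080. Among sites above the 25th percentile of level the counts were 893 and 494, so the excess toward BE(2)-C lay in the low sites. Without BE(2)-C replicate 2 the count higher in HEK293T was 758. In the siPcif1 libraries of the same lines, 568 sites (7.99%) were higher in HEK293T and 1373 (19.3%) in BE(2)-C. Of the 2742 sites called in siScram, 94.8% had the same sign there, against 79.3% of all 7106 shared sites, which come from the same tables. Of the called sites 54.4% were also called with the same sign and 3 were called with the opposite sign.

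Among called sites, those in 5'UTRs were mostly higher in HEK293T and internal ones without DRACH mostly higher in BE(2)-C. Of 1605 5'UTR sites, 517 (32.2%) were higher in HEK293T and 66 (4.11%) in BE(2)-C, with a median difference of 0.65. Of 2025 internal sites without DRACH, 147 (7.26%) were higher in HEK293T and 897 (44.3%) in BE(2)-C, with a median of -0.53. The 3085 internal DRACH sites had nearly equal calls each way, with 451 (14.6%) and 441 (14.3%) and a median of 0.05. After quantile normalization the medians were 0.27, -0.21 and 0.04. The calls higher in HEK293T and in BE(2)-C were then 273 and 80, 271 and 545, and 444 and 293, for the classes in the same order. The balance of calls at internal DRACH sites thus depended on the scaling. Intron sites, only 44 in number, had a median of -0.74 with 5 and 19 calls. Over all shared sites the median was 0.01.

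A contrast between classes inside a library is free of that library's scale factor, though not of its wider spread. In the HEK293T libraries the median 5'UTR site stood 2.06, 2.17 and 2.03 above the median internal site, and in the BE(2)-C libraries 1.26, 1.22 and 1.31 above it. The groups did not overlap, and the means of 2.09 ± 0.074 and 1.26 ± 0.045 (SD, n = 3 each) differed by 0.82. Internal DRACH sites exceeded other internal sites by 1.35 ± 0.049 in HEK293T and 0.77 ± 0.041 in BE(2)-C, a difference of 0.57. The 3'UTR sites exceeded coding sites by 0.29 ± 0.018 and 0.04 ± 0.056, a difference of 0.25. Intron sites stood 0.53 ± 0.097 above internal sites in HEK293T and 0.88 ± 0.079 in BE(2)-C, so that this contrast ran the other way, by -0.35. For each of the 8 contrasts in this family the 3 libraries of the lines did not overlap, and exact permutation of the 6 libraries (two-sided) gave p = 0.1 (0.1 after Benjamini-Hochberg adjustment), the smallest that 3 libraries against 3 allow. After quantile normalization the 5'UTR contrast differed by 0.30 instead of 0.82 and the DRACH contrast by 0.25 instead of 0.57. The difference in the intron contrast became -0.58.

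The 5' sites were then split by the base before the adenosine and set against internal DRACH sites. After a C, the typical m6Am context, 1039 sites stood 1.84 ± 0.088 above internal DRACH sites in HEK293T and 1.2 ± 0.084 in BE(2)-C (SD, n = 3 each), a difference of 0.63. After a T, 297 sites gave 1.72 ± 0.077 and 1 ± 0.08, a difference of 0.72, and after a G, 159 sites gave 1 ± 0.048 and 0.45 ± 0.05, a difference of 0.55. The order C, T, G was thus the same in both lines. After an A, only 22 sites gave 1.48 ± 0.25 and 0.72 ± 0.14, a difference of 0.76. With quantile normalization the differences after a C, T, G and A were 0.13, 0.28, 0.32 and 0.41. Both lines therefore had 5' sites well above internal DRACH sites, and the size of the gap between the lines depended on the scaling.

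In the siPcif1 libraries, where the m6Am writer was targeted, the contrasts of 5' sites against internal DRACH sites overlapped between the lines. That of 5'UTR sites against all internal sites did not: it was 1.11, 1.27 and 1.42 in HEK293T and 0.99, 1.01 and 0.97 in BE(2)-C, a difference of 0.28 (exact permutation p = 0.1). The sites after a C stood 0.98 ± 0.11 above internal DRACH sites in HEK293T and 0.93 ± 0.053 in BE(2)-C (exact permutation p = 0.7). Those after a T stood at 0.78 ± 0.14 and 0.73 ± 0.067 (exact p = 0.7), and those after a G at 0.18 ± 0.14 and 0.16 ± 0.016 (exact p = 1). The internal DRACH contrast, by comparison, was 1.36 ± 0.15 and 0.73 ± 0.045, again without overlap. The change in the difference between lines from siScram to siPcif1 was 0.58 after a C, 0.66 after a T and 0.54 after a G. Permuting line labels within each siRNA (400 arrangements, exact, two-sided) gave p = 0.07, 0.07 and 0.055, all 0.15 after adjustment over the 8 contrasts, so this change was not established.

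**Figure D4:**
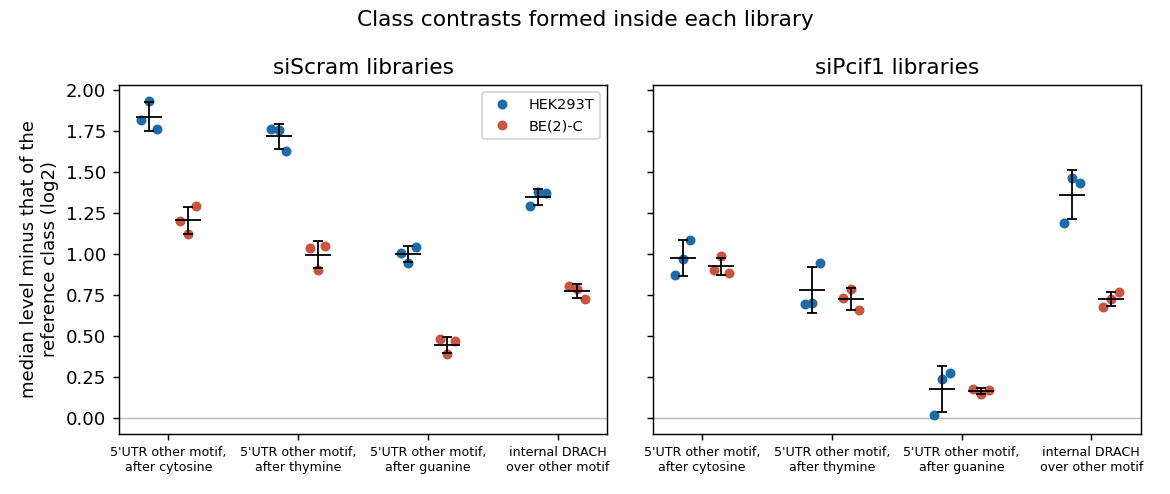
Points are libraries of HEK293T (blue) and BE(2)-C (red), with mean and SD of 3 as black bars; the y axis gives, on the log2 scale, the median level of a class minus that of its reference, which is internal DRACH sites for the 5'UTR classes and other internal sites for the DRACH class. In siScram (left) the lines are apart in all 4 classes, for example 1.84 against 1.2 after cytosine, and in siPcif1 (right) they overlap in the 5'UTR classes and stay apart for internal DRACH sites at 1.36 against 0.73.

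With each library centred on its median, internal DRACH sites had nearly equal calls each way as a class, but many individual DRACH motifs did not. GGACT, the most frequent with 804 shared internal sites, had median relative levels of 0.15, 0.23 and 0.24 in the HEK293T libraries and -0.16, -0.15 and -0.12 in the BE(2)-C libraries, and 194 of its sites were higher in HEK293T against 44 in BE(2)-C. GGACC (144 sites) had levels of 0.29 ± 0.09 and -0.03 ± 0.024 and GGACA (652 sites) 0.21 ± 0.0094 and 0.08 ± 0.0085. The levels ran the other way at several other motifs. TGACT (271 sites) did not: it had 0.01 ± 0.05 and -0.06 ± 0.042, with 43 and 35 calls and libraries that overlapped. AAACT (110 sites) stood at -0.08, 0.05 and -0.01 in HEK293T and at 0.56, 0.54 and 0.56 in BE(2)-C, with 1 site higher in HEK293T and 31 in BE(2)-C. GAACA (147 sites) stood at -0.36 ± 0.14 and 0.24 ± 0.0067, with 4 and 55 calls.

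Motifs were also grouped by their first 4 bases. The 1600 internal sites that begin with GGAC had a median difference of 0.25, with 338 calls higher in HEK293T and 113 in BE(2)-C. The 331 that begin with AGAC had -0.31 with 19 and 84 calls, the 666 that begin with GAAC had -0.21 with 44 and 140, and the 127 that begin with AAAC had -0.63 with 1 and 41. The 26 that begin with TAAC had -0.51 with 2 and 8. The 335 that begin with TGAC were balanced, at 0.02 with 47 and 55. Quantile normalization left these medians at 0.26, -0.31, -0.19, -0.66, -0.51 and 0.08, in the order given, and in the siPcif1 libraries they were 0.30, -0.18, -0.12, -0.40, -0.36 and 0.08. Unlike the class contrasts, the medians of these groups other than TGAC thus changed little when the libraries were given the same spread. In HEK293T the GGAC sites had the highest median level of the 6 groups and in BE(2)-C the AAAC sites did. A site is counted here only if it was listed in both lines.

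Single sites were ranked among called sites whose level lay above the median of shared sites and whose libraries did not overlap, with 1 site per gene. Among the 10 of them with the largest differences toward HEK293T, 8 lay in 5'UTRs. The first was in POLR2E, a subunit shared by the RNA polymerases, at chr19:1095352 on the minus strand (hg38). Its RML was 13.6, 18.1 and 13.6 in HEK293T and 1.63, 1.36 and 2.03 in BE(2)-C. The groups were far apart, with a log2 difference of 3.60 ± 0.29 (SE, limma adjusted p = 5.43e-05), or 12.1-fold. The site of POLR2J, another RNA polymerase II subunit, at the first base of the gene, had RML of 28.6, 18 and 122 against 4.15, 5.7 and 6. HEK293T replicate 3 was far above the others, and the difference was 3.34 ± 0.63 (limma adjusted p = 0.00374).

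CTNNB1 encodes beta-catenin, the Wnt effector and adhesion protein. Its first base had RML of 31.5, 43.3 and 23.8 in HEK293T and 3.42, 6.3 and 4.77 in BE(2)-C, a difference of 3.18 ± 0.34 (limma adjusted p = 0.000194). MYDGF, a secreted growth factor, had 38.4, 60.9 and 50.9 against 4.73, 8.16 and 9.8 at its first base, a difference of 3.18 ± 0.33 (limma adjusted p = 0.000161). SPTAN1, the non-erythroid alpha-spectrin, had 48.1, 117 and 43 against 8.47, 16.7 and 14.2, a difference of 2.72 ± 0.45 (limma adjusted p = 0.00191). Separation of the libraries was a condition of the ranking. Over all 7106 shared sites, all HEK293T libraries lay above those of BE(2)-C at 24.5% of sites and below them at 27.3%.

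The other 5'UTR sites were in SRPRB, a subunit of the signal recognition particle receptor (2.79), ITM2C, an integral membrane protein (2.73), and UCKL1, a uridine-cytidine kinase-like protein (2.88). UCKL1 lost its call under quantile normalization (2.24, limma adjusted p = 0.0823) and without HEK293T replicate 1 (2.56, limma adjusted p = 0.0614), HEK293T replicate 2 (2.56, limma adjusted p = 0.0599) or BE(2)-C replicate 3 (2.01, limma adjusted p = 0.0559). In the siPcif1 libraries its difference was 0.51 (limma adjusted p = 0.495). The coding sites were GGACG in the kinesin-family gene KIF26A (chr14:104175343) and GGACT in ARHGDIA (chr17:81868889). ARHGDIA had RML of 6.82, 8.65 and 8.33 in HEK293T and 1.46, 1.61 and 1.74 in BE(2)-C, with 2.72 in siScram and 2.42 in siPcif1. CTNNB1, POLR2E and KIF26A differed by 2.46, 3.10 and 2.44 in siPcif1 and were called there too.

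Among the 10 sites of this ranking with the largest differences toward BE(2)-C, 6 lay in coding sequence and 2 in 5'UTRs. Sites of low level, which the ranking leaves out, reached larger differences, such as those of RPL7 and HSPA8 below. First in the ranking was a site of CALR, calreticulin, a calcium-binding chaperone of the endoplasmic reticulum, at chr19:12943541 in the motif CAAGT. Its RML was 1.08, 0.993 and 1.22 in HEK293T and 7.58, 8.97 and 12.5 in BE(2)-C, a difference of -2.70 ± 0.22 (SE, limma adjusted p = 5.44e-05). NPM1, nucleophosmin, a nucleolar histone and ribosome chaperone, had 1.34, 1.31 and 1.24 against 6.8, 8.57 and 11.8 at a coding AAAGT (-2.35 ± 0.21, limma adjusted p = 7.7e-05). PTMA, prothymosin alpha, was the only DRACH site of the 10, a coding GGACT at chr2:231711349 with RML of 3.02, 3.27 and 2.97 against 15.1, 19 and 35.3. Its difference of -2.40 ± 0.29 (limma adjusted p = 0.000332) ran against the direction of most GGACT sites.

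The ribosomal protein genes RPL41 (-2.38, coding) and RPS18 (-2.15, intron) were also in this set, with PIK3R2, a regulatory subunit of PI3-kinase (-2.46), and GLRX5, a mitochondrial glutaredoxin (-2.11). CABLES1, a CDK5 and ABL1 substrate, had a 3'UTR site with RML of 1.53, 1.77 and 1.28 against 4.44, 23.9 and 10.6 (-2.37), which was -0.65 in siPcif1 (limma adjusted p = 0.317). GLRX5 had a single high BE(2)-C library, with RML of 6.07, 6.41 and 39.9. The 5'UTR sites were in GLIPR2, a Golgi-associated protein, with RML of 7.02, 2.53 and 2.63 in HEK293T and 16.3, 33.4 and 19.2 in BE(2)-C (-2.19 ± 0.46, limma adjusted p = 0.00602), and in WDR24, a subunit of the GATOR2 complex (-2.12). These lay 199 and 508 nt inside the gene start, and their siPcif1 differences were -1.24 and -1.11 (limma adjusted p = 0.16 and 0.118). Among the sites higher in HEK293T, those of CTNNB1 and MYDGF lay at the gene start. Those of ITM2C and SRPRB lay 763 and 21822 nt inside it.

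**Figure D5:**
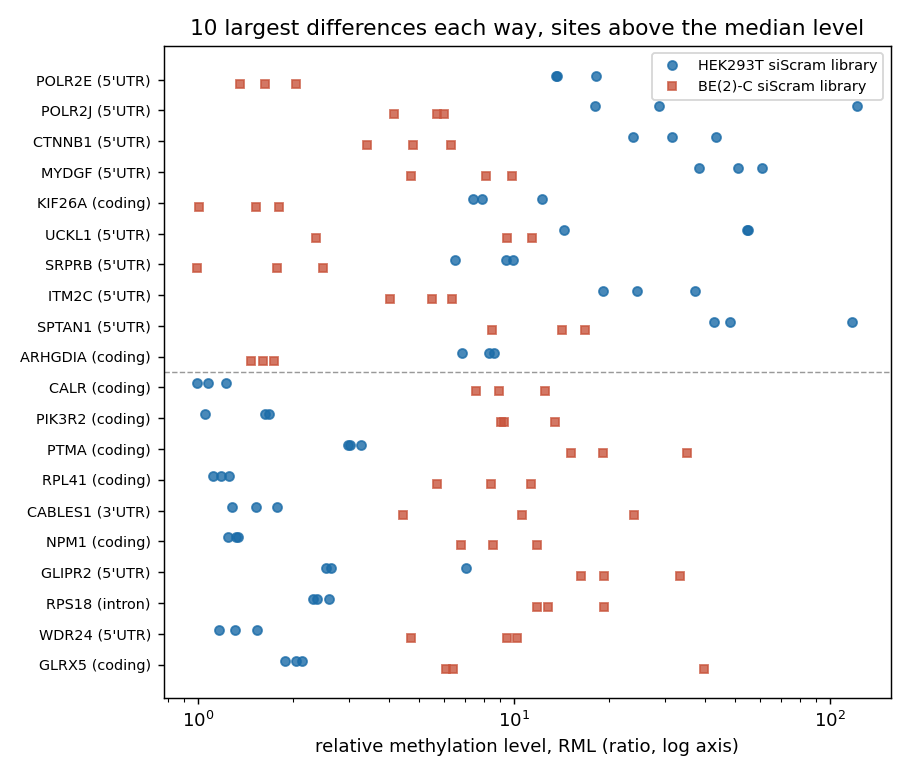
RML on a log axis in each siScram library of HEK293T (blue circles) and BE(2)-C (red squares) at the 10 shared sites above the median level, 1 per gene, with the largest difference toward HEK293T (above the dashed line) and toward BE(2)-C (below it). Most of the upper set are 5'UTR sites with RML above 10 in HEK293T, such as MYDGF at 38.4 to 60.9, and most of the lower set are coding sites with RML between 1 and 4 in HEK293T.

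Gene groups differed in their medians and in the classes of site they contain, and a link between the 2 was not tested. The lists are described by their counts and medians beside those over all shared sites (16.3% and 22.3% called, median 0.01). The medians kept their sign under quantile normalization, centring on the whole table and no centring for oxidative phosphorylation, proteasome, 2p24, cleavage, nucleolar, chaperone, ribosomal protein and ZNF genes. For the other lists below the sign depended on the scaling. Genes of oxidative phosphorylation had 113 shared sites in 57 genes, 84.1% of them in 5'UTRs, of which 47 were higher in HEK293T and 8 in BE(2)-C, with a median of 0.70 (0.42 after quantile normalization). The 5'UTR site of NDUFB10, a complex I subunit, had RML of 10, 11.1 and 8.24 against 1.91, 3.16 and 2.95 (2.31, limma adjusted p = 0.00019), and that of NDUFA1 differed by 1.68 (limma adjusted p = 0.000221). Proteasome genes had 59 shared sites, 16 higher in HEK293T and 4 in BE(2)-C, with a median of 0.57. POMP, the proteasome maturation protein, had RML of 2.94, 3.48 and 3.16 against 0.944, 1.22 and 1.21 in its 5'UTR (1.92, limma adjusted p = 0.000135), while PSMG3, an assembly chaperone, had a coding GGACA that differed by -1.78. The proteasome 5' sites differed by a median of 0.71 (0.46 after quantile normalization) and its 14 internal DRACH sites by 0.08 (0.55). At the 5' sites of all genes the median was 0.67 (0.28). In siPcif1 the medians of the 2 lists were 0.11 and 0.17.

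Cytosolic ribosomal protein genes lay at the other end. Of their 268 shared sites in 54 genes, 19 were higher in HEK293T and 188 in BE(2)-C, with a median of -1.08, or -0.41 after quantile normalization. Internal non-DRACH sites made up 72% of them. Those 193 sites had a median of -1.33, with 2 and 169 calls, against -0.53 over all internal non-DRACH sites. After quantile normalization these medians were -0.53 and -0.21. The 42 5' sites of the same genes had a median of 0.50 (0.31 after quantile normalization) with 12 and 4 calls. The leading site was coding, in RPL7, with RML of 0.15, 0.174 and 0.162 in HEK293T and 1.64, 2.47 and 2.62 in BE(2)-C (-3.35, limma adjusted p = 1.4e-05), followed by RPL3 (-2.67, limma adjusted p = 2.22e-05). Many ribosomal protein genes have near-identical pseudogene copies, and how their reads were assigned is not stated.

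Chaperone and chaperonin genes had 87 shared sites, 7 higher in HEK293T and 56 in BE(2)-C, with a median of -0.97 (-0.54 after quantile normalization). Here the internal DRACH sites moved too: 30 of them had a median of -0.91 (-0.50 after quantile normalization), with 1 and 21 calls, where internal DRACH sites of all genes had 0.05. A coding site of HSPA8, the constitutive cytosolic HSP70, had RML of 0.168, 0.247 and 0.208 against 1.29, 2.36 and 2.47 (-2.84, limma adjusted p = 2.98e-05). HSPA5, or BiP, the HSP70 of the endoplasmic reticulum, had 36 shared sites, of which 31 were higher in BE(2)-C and 1 in HEK293T, with a median of -1.34 (-0.86 after quantile normalization). Its 15 DRACH sites, of which 11 were higher in BE(2)-C, share a gene and are among the 30. Without HSPA5 the other 15, in 9 genes, had a median of -0.80 with 0 and 10 calls, or -0.21 after quantile normalization.

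Nucleolar ribosome biogenesis genes had 9 and 29 calls among 88 sites (median -0.11), with NOL6 at -2.50. Glycolytic enzymes had 10 and 24 among 67, with a median of -0.09 that changed sign under quantile normalization (0.20). Their 30 internal non-DRACH sites had -0.78, or 0.02 after quantile normalization, and their 19 5' sites 0.62 under both settings. A coding site of LDHB, a lactate dehydrogenase subunit, differed by -1.68 and a coding site of PKM, pyruvate kinase, by -1.68. After quantile normalization they differed by -0.80 and -0.78. The 20 shared sites of PKM had a median of -0.22 with 3 and 7 calls, or 0.58 after quantile normalization. Splicing factor, SR and hnRNP genes had 28 calls each way among 141 sites (median 0.16), with a median of -0.50 at 39 internal non-DRACH sites and of 0.70 at 57 5' sites, or 0.02 and 0.20 after quantile normalization. Genes of cleavage, polyadenylation and termination had 2 and 13 among 39 (median -0.20), led by SSU72 (-1.56) and CPSF6 (-1.61). Zinc finger genes of the ZNF family had 4 and 13 among 79 (median -0.26) and histone genes 10 and 9 among 49 (median 0.32).

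Lineage genes had few shared sites. Adrenergic neuroblastoma markers had 42 listed sites in HEK293T and 812 in BE(2)-C, of which 30 were shared, in 6 genes, with 4 higher in HEK293T, 0 higher in BE(2)-C and a median of 0.30. Over all shared sites 16.3% were called higher in HEK293T and 22.3% higher in BE(2)-C, so this list had no excess of calls in either direction. HAND1, a basic helix-loop-helix factor, had RML of 2.37, 1.92 and 1.38 in HEK293T and 0.808, 1.05 and 0.977 in BE(2)-C at a 5'UTR GGACT (1.39, limma adjusted p = 0.00223). GATA2 had a 3'UTR site that differed by 0.99 (limma adjusted p = 0.0225), a call lost with no centring (0.57, limma adjusted p = 0.311) and when HEK293T replicate 1 was left out (0.92, limma adjusted p = 0.0546). Without HEK293T replicate 3 it was 0.95 (limma adjusted p = 0.0555) and without BE(2)-C replicate 1 it was 0.73 (limma adjusted p = 0.0707). Neuronal cytoskeleton and neurite genes had 10 and 11 calls among 51 sites, with a median of 0.14 (0.44 after quantile normalization). The 2 sites named for the smallest p-values of this list ran the other way from that median. STMN1, a microtubule destabiliser, differed by -2.15 at a coding site, and NEFL, the light neurofilament chain, by -1.64. Mesenchymal markers had 7 shared sites with 0 and 1 calls, that 1 being VIM, vimentin (-0.82, limma adjusted p = 0.018), which was -0.19 after quantile normalization (limma adjusted p = 0.606). VIM was also not called without HEK293T replicate 2 (-0.74), BE(2)-C replicate 2 (-0.82) or BE(2)-C replicate 3 (-0.62), with limma adjusted p of 0.0566, 0.0549 and 0.057. The 2 shared sites of DDX1 and the 1 of TRIB2 were not called. The 5'UTR site of DDX1 had a difference of 1.27 (limma adjusted p = 0.0643), or 1.80 without HEK293T replicate 3 (limma adjusted p = 0.00914), and TRIB2 had 1.20 (limma adjusted p = 0.0895), or 1.82 without HEK293T replicate 1 (limma adjusted p = 0.00465).

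The genes of the marks themselves were examined next. All 23 listed members of the m6A and m6Am machinery had sites in HEK293T, 252 in all, and 15 had sites in BE(2)-C, 201 in all, beside 57011 and 22855 sites over all genes. METTL3, the m6A methyltransferase, had 8 sites in HEK293T and 2 in BE(2)-C, both shared. Its first base had RML of 10.7, 22.8 and 14.9 in HEK293T and 26.1, 26.7 and 11.8 in BE(2)-C, groups that overlapped (0.02 ± 0.53, limma adjusted p = 0.978). Its coding GGACT had 2.46, 3.37 and 2.7 against 2.06, 2.37 and 3.39 (0.56 ± 0.22, limma adjusted p = 0.0744). PCIF1 had 6 sites in HEK293T and 1 in BE(2)-C, and FTO, a demethylase, had 2 and 0, with no site in common. ALKBH5, the other demethylase, had 19 and 0.

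The 44 shared sites of this machinery gave 12 calls higher in HEK293T and 10 in BE(2)-C, with a median of 0.09 (-0.05 after quantile normalization). RBM15B, an adaptor of the writer complex, had 48 sites in HEK293T and 20 in BE(2)-C, with 9 shared, and the reader genes YTHDF1, YTHDF2 and YTHDF3 had 15, 30 and 12 against 10, 11 and 17. YTHDF3 thus had more sites in BE(2)-C. So did HNRNPA2B1 and HNRNPC, RNA-binding proteins linked to m6A, with 5 and 8 sites in HEK293T and 58 and 38 in BE(2)-C. RBMX of the same list had 4 and 15. A coding site of HNRNPC differed by -1.69 (limma adjusted p = 6.19e-05) and a coding GAACA of IGF2BP3, a reader, by -1.77 (limma adjusted p = 0.00043), the latter being -0.46 in siPcif1 (limma adjusted p = 0.417). Cap methylation, cap binding and decapping genes had 4 and 7 calls among 28 shared sites. In that list LARP1, which binds the cap of ribosomal protein mRNAs, had 11 shared sites with 0 and 3 calls. Their median was 0.07 (-0.09 after quantile normalization), with a coding site at -1.65. PCF11, a factor of cleavage and termination, had 1 shared site whose groups overlapped, with RML of 4.58, 6.07 and 11.4 against 4.42, 4.45 and 20.7 (0.29 ± 0.54, limma adjusted p = 0.695).

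Genes with at least 10 shared sites showed how far a single transcript followed one direction. All 12 shared sites of RPL3, all 17 of NPM1 and all 13 of EEF1A1, a translation elongation factor, were higher in BE(2)-C, with medians of -1.54, -1.44 and -1.43 (-0.82, -0.82 and -0.66 after quantile normalization). At the other end CHAC1, a glutathione-degrading enzyme of the stress response, had 14 shared sites with 6 higher in HEK293T and 0 in BE(2)-C (median 0.69). ARHGDIA had 12 with 6 and 0 (0.67) and RHOB, a small GTPase, 19 with 8 and 0 (0.62). TUBB, a beta-tubulin with close paralogs, had the most shared sites, 53, and was mixed, with 15 and 10 calls.

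A last comparison was made inside genes, by setting the mean level of a gene's 5' sites against the mean of its internal DRACH sites in each library, which needs no centring and cancels a gene-wide factor. It was possible for 283 genes. The median contrast was 2.60 in HEK293T and 1.90 in BE(2)-C, and 71.4% of genes had a larger contrast in HEK293T. With limma, 93 genes (32.9% of those tested) had a larger contrast in HEK293T and 10 (3.53%) a larger one in BE(2)-C, with a median difference of 0.76. After quantile normalization the counts were 21 (7.42%) and 19 (6.71%) and the median 0.11, so the excess toward HEK293T was lost under that scaling. In siPcif1 the counts were 29 (10.2%) and 13 (4.59%) with a median of 0.14. The count of 10 was 6 without HEK293T replicate 2, 6 without BE(2)-C replicate 2 and 4 without BE(2)-C replicate 3.

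HSP90B1, or GRP94, the HSP90 of the endoplasmic reticulum, had the largest difference. The RML at its first base was 68.9, 67.1 and 66 in HEK293T and 18.6, 14.3 and 35.9 in BE(2)-C, while that of a coding AGACT at chr12:103938451 was 0.117, 0.147 and 0.147 against 0.581, 1.24 and 1.13. The first base and this coding site thus differed in opposite directions. The contrast was 8.19 ± 0.063 and 4.45 ± 0.68 (SD, n = 3 each), a difference of 3.74 ± 0.32 (SE, limma adjusted p = 0.000113), and it was 2.01 after quantile normalization and 2.96 in siPcif1. MYDGF followed with 3.36, its 3'UTR GGACT sites having no called difference. SRPRB differed by 3.24, EIF4EBP1, the translation repressor that binds the cap-binding protein, by 2.88, and CLPP, a mitochondrial protease, by 2.73. All 5 remained past the threshold under quantile normalization and in siPcif1.

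In the other direction GINS1, a subunit of the replicative helicase complex, differed by -1.98 ± 0.49 (SE, limma adjusted p = 0.0111). Its 5'UTR site had RML of 1.94, 0.801 and 0.614 in HEK293T and 3.43, 4.55 and 7.3 in BE(2)-C, and its coding GAACT did not differ (0.09, limma adjusted p = 0.844). PTBP1, the polypyrimidine tract-binding splicing regulator, differed by -1.81, and there the internal site moved: its 3'UTR TGACT had 1.18, 1.24 and 1.42 in HEK293T and 0.282, 0.307 and 0.655 in BE(2)-C. The 5' site at the first base of PTBP1 was higher in HEK293T (0.80, limma adjusted p = 0.0388). Its other 5' site was not called (-0.13, limma adjusted p = 0.827). CDC42SE1, a CDC42 effector, differed by -1.80, GPAT4, a glycerol-phosphate acyltransferase, by -1.66 and SLC35A4, a transporter-family protein, by -1.47. The 5' site of CDC42SE1 stood below its internal DRACH sites in both lines, with contrasts of -2.81 ± 0.27 in HEK293T and -1.01 ± 0.15 in BE(2)-C (SD, n = 3 each). Those of GPAT4 lay 20309 and 20472 nt inside the gene start. The 5' sites of SLC35A4 were not called (-0.39 and -0.24), whereas its coding TGACT was higher in HEK293T (1.15, limma adjusted p = 0.0153). All 5 genes held under quantile normalization. In siPcif1 CDC42SE1 and PTBP1 were past the threshold and GINS1 (limma adjusted p = 0.11), GPAT4 (0.398) and SLC35A4 (0.263) were not. Each of 3 calls also rested on a library or on the scale. SLC35A4 was not called without HEK293T replicate 2 (-1.04, limma adjusted p = 0.102), BE(2)-C replicate 1 (-1.32, limma adjusted p = 0.0986) or BE(2)-C replicate 3 (-1.35, limma adjusted p = 0.0958). PTBP1 was not called without BE(2)-C replicate 2 (-1.37, limma adjusted p = 0.0583), and GINS1 without BE(2)-C replicate 3 (-1.74, limma adjusted p = 0.0514). With a pseudocount of 1 SLC35A4 was at -0.66 (limma adjusted p = 0.0691) and PTBP1 at -0.25 (limma adjusted p = 0.437).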

How the data were processed

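The members and gene lists were chosen with earlier results of these data known. The authors deposited, for each line, a table of sites with a ratio (RML) for every m6ACE library, and with DESeq2 p-values, group means as ratios and a log2 fold change, per the file headers. The submitters' processing notes name the hg38 build and, with no roles, bcl2fastq 2.20, cutadapt 3.7, STAR and Bowtie2. In every row of both tables the smaller of the 2 deposited p-values was at most 0.05, so a site is listed once it was called in siScram or siPcif1. No siScram ratio was 0, input libraries have no column, and depth per site is unknown.

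The 7106 shared sites were analysed as log2(RML) with a pseudocount of 0, centred per library, in limma 3.58.1 (R 4.3.3; lmFit, eBayes with a variance trend, 3 libraries against 3), with p-values adjusted over all shared sites or all 283 genes at 0.05. Class contrasts used exact two-sided permutations over 20 arrangements. The test of the change between siScram and siPcif1 was added after the data had been seen. The replicate numbers did not pair the libraries: deviations of same-numbered libraries correlated at -0.013, -0.019 and 0.0072. Named sites were the 10 largest called differences each way, 1 per gene, above the median level and without overlap of libraries, the 2 smallest p-values of each list, and METTL3, PCF11, PCIF1, FTO and MYCN. Named genes of the within-gene contrast were the 5 largest each way, and genes of a single line the 10 with most sites. Gene starts and sequences came from RefSeq GRCh38.p14, whose symbols matched 98.3% of the 9117 in the tables, and older symbols were updated where RefSeq listed them. On simulated ratios for these 7106 sites, limma recovered 32% of 100 sites changed by 1 and 76% of 100 changed by 2 on the log2 scale, with 11 false calls. All other sites were simulated without a change, whereas 38.6% of sites were called in the data. The recovery rates therefore cover that sparser setting only. Alternatives were other centrings, quantile normalization, pseudocounts, a filter on low levels, stricter listing, positions matched within 2 nt, the replicate number as a block, and leaving out each library.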

Additional observations from a re-analysis of the deposited data

Results flagged for a closer look

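Within single genes, the contrast between 5' sites and internal DRACH sites differed between the lines in 10 genes named by the rule, tested as the difference itself with limma over 283 genes. The differences (HEK293T minus BE(2)-C, log2) were 3.74 for HSP90B1, 3.36 for MYDGF, 3.24 for SRPRB, 2.88 for EIF4EBP1 and 2.73 for CLPP toward HEK293T. They were -1.47 for SLC35A4, -1.66 for GPAT4, -1.80 for CDC42SE1, -1.81 for PTBP1 and -1.98 for GINS1 toward BE(2)-C. In each of the 10 genes the 3 libraries of a line did not overlap those of the other, but the 10 were picked as the largest called differences. Some genes that were not called, such as AK1 (limma adjusted p = 0.453), had no overlap either. What lies behind them was not tested, and line and table cannot be told apart.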

How the results depend on the processing

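Each site level is relative to its own table, whose scaling is unstated, and depth per site is unknown. No called site, called gene or class contrast named here changed sign under the alternatives run. List medians that changed sign with the scaling went from 0.30 to -0.12 (adrenergic markers) and from 0.32 to -0.09 (histones) without centring, and from 0.16 to -0.01 (splicing) with whole-table centring. The lists of neuronal, mesenchymal, m6A, cap and glycolytic genes also changed sign. Quantile normalization lowered the count of sites higher in BE(2)-C to 1034 and changed the within-gene counts to 21 higher in HEK293T and 19 in BE(2)-C. No centring left 279 sites higher in HEK293T (2080 in BE(2)-C), and leaving out sites below the 25th percentile of level left 494 higher in BE(2)-C. A pseudocount of 1 left 5 genes with a larger contrast in BE(2)-C, and centring on internal DRACH sites gave the oxidative phosphorylation genes a median of 0.66. Leaving out each library in turn gave 758 to 1026 sites higher in HEK293T and 1318 to 1527 higher in BE(2)-C, and 70 to 84 and 4 to 12 genes.

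Listing moved most with the deposited p. Counting a site as listed only at a siScram p of at most 0.001, 8.7% of HEK293T and 39.9% of BE(2)-C sites were shared. DRACH then made up 31.7% of shared, 50.1% of HEK293T-only and 9.79% of BE(2)-C-only sites, and 5'UTRs held 27.8%, 27.2% and 4.2%. At a siScram p of at most 0.05, 5'UTRs held 23.5% of HEK293T-only sites and DRACH made up 9.69% of BE(2)-C-only sites. Matching positions within 2 nt gave 12.9% and 32.4% shared. The limits on p leave fewer sites, whereas matching within 2 nt leaves all of them. The cause of these changes was not tested.

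With the replicate number as a block, 1016 sites were higher in HEK293T and 1553 in BE(2)-C, and 91 and 10 genes were called. The numbers do not pair the libraries, and the block added calls for DDX1 (1.27, limma adjusted p = 0.0365) and TRIB2 (1.20, limma adjusted p = 0.0413).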
